A study of Mus musculus with 14 samples.

Results

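Whole Lewis lung carcinoma (LLC) tumors grown in mice without PI3K gamma were compared with whole LLC tumors grown in wild-type (WT) mice. The members are the 3 libraries labelled p110g-/- whole tumor and the 3 labelled WT whole tumor, 6 of the 14 libraries of the series, and all 12924 genes of the table were taken. LLC is a mouse lung carcinoma line. Its cells were placed in the flank of C57BL/6 mice of either genotype, so the genotype is that of the host. On day 14 the tumors were taken and RNA was prepared from 30 mg pieces of tumor tissue. The other 8 libraries came from CD11b+Gr1- cells sorted from such tumors, 4 per genotype, which stand for tumor-associated macrophages (TAM) and are used below only to set the tumor result beside. The labels give neither the age nor the sex of the mice, and they do not say whether libraries came from different mice or which part of the gene was removed. The p-values therefore reflect only how far these libraries spread, which may be technical spread.

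PI3K gamma is a lipid kinase made mainly by white blood cells. Its catalytic subunit, p110 gamma, is encoded by Pik3cg and is switched on by G protein-coupled receptors such as chemokine receptors, through the adaptor subunits p101 (Pik3r5) and p84 (Pik3r6). The kinase makes PIP3, which recruits AKT, and in tumor myeloid cells it is known for a role in their recruitment and in an immune-suppressive state. Interferon-gamma, the product of Ifng, is made by T cells and NK cells. It binds the receptor encoded by Ifngr1 and Ifngr2, which signals through JAK1 and JAK2 to genes with GAS elements and, through IRF1, to genes with ISRE elements. Its classical targets are the guanylate-binding proteins, the immunity-related GTPases, the chemokines that attract T cells, and the MHC class I pathway.

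The values are normalized counts, that is, gene counts scaled by 1 factor per library. They summed to 25883561 to 27586429 per library. Estimated depth was 41.5 to 44.6 M reads in WT and 32.1 to 43.4 M in p110g-/-. A gene with 3 reads would hold 1.79 to 2.48 normalized counts, counting error only. Mitochondrial genes took 3.02% to 3.32% of the WT libraries and 2.49% to 3.01% of the p110g-/- libraries. The first principal component held 50.3% of the variance and separated the genotypes, and p110g-/- tumor 1 stood apart from the other p110g-/- libraries on the second, which held 17.6%. The carcinoma keratin genes Krt8 and Krt18 and the macrophage markers Csf1r, Cd68 and Adgre1 held at least 1994 normalized counts in each of the 6 libraries. Of the 12 carcinoma epithelium markers listed, 6 could be tested.

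Pik3cg (gene ID 30955), the targeted gene, held 487, 616 and 527 normalized counts in the WT libraries and 242, 279 and 417 in the p110g-/- libraries. All 3 p110g-/- libraries were below every WT library, and the gene was not at 0 in any of them. The log2 fold change was −0.83 (SE 0.19, adjusted p = 0.0555 with limma), just short of the threshold of 0.05. It passed without p110g-/- tumor 1 or p110g-/- tumor 3. Among the 10 class I PI3K genes tested, which were subunit genes and the adaptor gene Pik3ap1, none was called. Of the 10, 7 had a positive log2 fold change, and the median was 0.26. Pik3r5, the p101 adaptor gene, held 905, 1206 and 1019 in the WT libraries and 1192, 1706 and 1728 in the p110g-/- libraries, and Pik3r2, a regulatory subunit gene of class IA kinases, 4563, 5215 and 5100 in the WT libraries and 3657, 4327 and 3999 in the p110g-/- libraries (adjusted p = 0.0843 and 0.0606). Log2 fold changes were 0.43 for Pik3cd, 0.22 for Pik3cb, 0.13 for Pik3ca and −0.15 for Pik3r6. Pik3cd, Pik3cb, Pik3ca and Pik3r6 were chosen after their values were seen, as were Csf1r, Cd68 and Adgre1 above.

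Of the 12717 genes tested, 286 were higher and 267 lower in p110g-/- tumors (limma on log2(normalized count + 1), adjusted p below 0.05). That is 4.35% of the genes tested in either direction, 2.25% higher and 2.1% lower. The groups did not overlap in 1991 genes that were higher, 15.7%, and in 1955 that were lower, 15.4%. The rises were larger than the falls, with a median log2 fold change of 0.70 among genes called higher and −0.40 among those called lower, and with 119 and 18 genes respectively past a 2-fold change. The median over all genes tested was 0.0074. The number of calls rested on single libraries. Without WT 1, WT 2 or WT 3 it was 50 higher and 35 lower, 24 and 7, or 106 and 49. Without p110g-/- 2 it was 21 and 8, and without p110g-/- 3 it was 34 and 35. Without p110g-/- 1, the library that stood apart, it was 978 and 1022, with 285 of the 286 and all 267 of the main calls among them. In the comparison with 6 libraries and in each of the 6 with 1 left out, 14 genes were called higher (Gbp2, Gbp3, Gbp6, Igtp, Irgm2, Iigp1, Tgtp2, Gm4951, Gzmd, Gzmf, H2-Q4, H2-T9, Slc13a3 and LOC102641258) and 4 lower (Tppp3, Cpe, Fam20c and Lpcat2). Gzmf and LOC102641258 fall outside the naming rule.

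**Figure D1:**
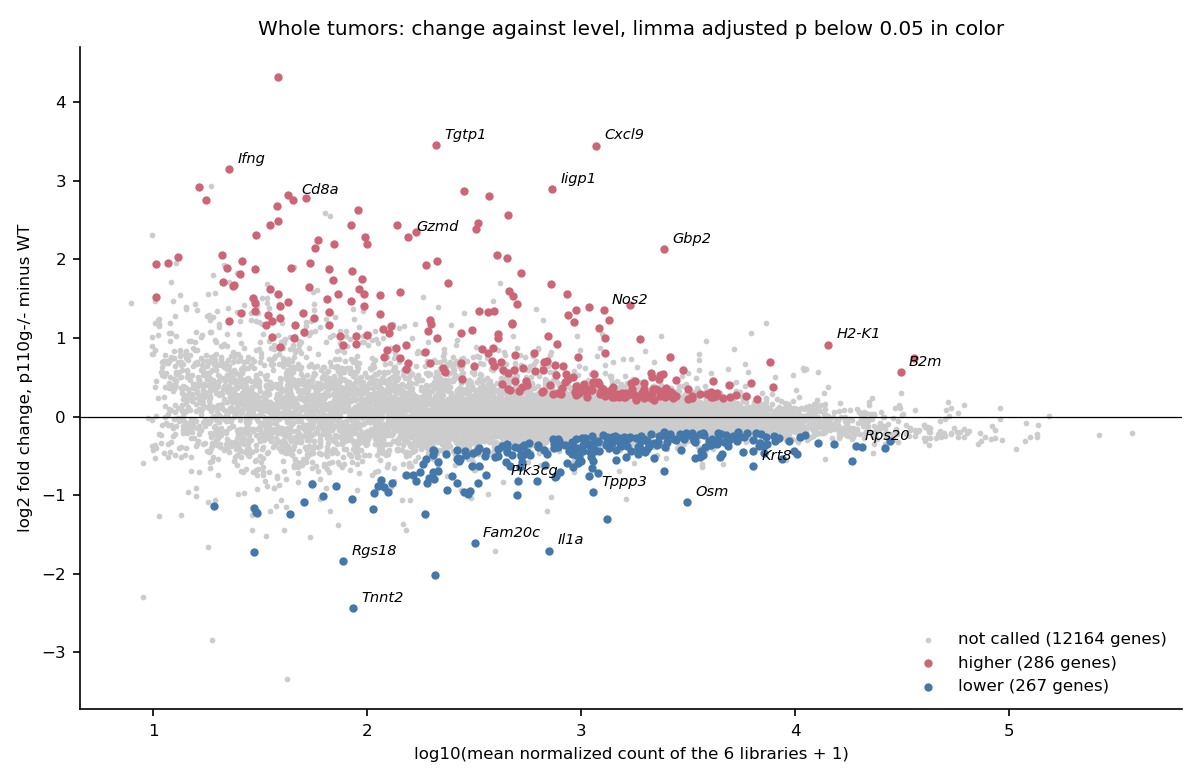
Log2 fold change of each tested gene in p110g-/- against WT whole tumors (vertical) by the log10 mean normalized count of the 6 libraries plus 1 (horizontal). Red points are the 286 genes called higher and blue points the 267 called lower, and the red points reach farther from 0 than the blue ones.

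Interferon-gamma transcripts were few in WT tumors. Ifng (gene ID 15978) held 2, 2 and 9 normalized counts in the WT libraries and 33, 45 and 39 in the p110g-/- libraries. WT 1 and WT 2 lay near the 3-read level and WT 3 above it, and every p110g-/- library lay above all 3 (log2 fold change 3.15, SE 0.50, adjusted p = 0.0243). Among the 10 genes of its receptor signalling, 2 rose and none fell, against 2.25% called higher and 2.1% lower among all genes tested. Irf1 (gene ID 16362), a transcription factor that binds ISRE elements, held 1701, 1921 and 2173 in the WT libraries and 3100, 3441 and 3237 in the p110g-/- libraries. It rose by 0.76 on the log2 scale (SE 0.089, adjusted p = 0.0094). The receptor and kinase genes showed small differences, with log2 fold changes of −0.19 for Ifngr1, 0.20 for Ifngr2, 0.0082 for Jak1 and 0.15 for Jak2, none of them called. The SE for Jak1 was 0.046. Socs1, a feedback inhibitor of the pathway, had a log2 fold change of −0.25 (adjusted p = 0.306). These 5 genes were chosen after their values were seen. Ifng lost its call without WT 1, WT 2, p110g-/- 2 or p110g-/- 3, and Irf1 lost it without WT 2 or p110g-/- 2.

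The interferon-gamma induced GTPases rose together. Of 18 tested, 16 were called higher and none lower, and all 18 had a positive log2 fold change. In 17 of the 18 the genotypes did not overlap. Among all genes tested, 15.7% were higher without overlap and 2.25% were called higher. The list median log2 fold change was 2.09, against 0.0074 over all genes. Summed over the list, WT libraries held 3449 to 4692 normalized counts and p110g-/- libraries 11454 to 18548. The guanylate-binding proteins attack the membranes around intracellular microbes and can set off inflammasomes. Gbp2 (gene ID 14469) held 689, 921 and 1123 normalized counts in the WT libraries and 3115, 4213 and 4553 in the p110g-/- libraries. Its lowest p110g-/- library was thus above its highest WT library by a wide margin (log2 fold change 2.13, SE 0.19, adjusted p = 0.00743). Gbp6 held 116, 122 and 145 in the WT libraries and 529, 912 and 903 in the p110g-/- libraries, and Gbp3 216, 209 and 255 in the WT libraries and 627, 863 and 963 in the p110g-/- libraries. The others called were Gbp4, Gbp5, Gbp7, Gbp8 and Gbp9, with log2 fold changes of 1.35 (Gbp9) to 2.80 (Gbp4). In each of these 8 genes p110g-/- tumor 1 was the lowest of the 3 p110g-/- libraries.

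The immunity-related GTPases, which act on the vacuoles of intracellular parasites and bacteria, behaved alike. Iigp1 (gene ID 60440) held 133, 161 and 216 normalized counts in the WT libraries and 860, 1432 and 1570 in the p110g-/- libraries (log2 fold change 2.89, SE 0.25, adjusted p = 0.00743). Igtp, also called Irgm3, held 314, 310 and 399 in the WT libraries and 851, 1245 and 1228 in the p110g-/- libraries, and Irgm2 238, 228 and 260 in the WT libraries and 550, 858 and 740 in the p110g-/- libraries. Both groups were narrow, with no WT library of either gene near a p110g-/- library. Tgtp2 held 49, 58 and 100 in the WT libraries and 379, 561 and 540 in the p110g-/- libraries and its near-identical neighbor Tgtp1 21, 30 and 56 in the WT libraries and 271, 381 and 494 in the p110g-/- libraries. The counting of reads that fit several near-identical genes is not stated, so single values of Tgtp1, Tgtp2, the Gbp genes, the H2 genes and the granzymes c to g are uncertain. Gm4951, Ifi47 and Irgm1 were also called, at log2 fold changes of 2.63, 2.06 and 1.20. Gbp10, listed at 0 in WT 1, and Gvin1 were the 2 members that did not pass. Leaving out WT 1, WT 2 or WT 3 left 14, 9 and 14 members called, and leaving out p110g-/- 1, p110g-/- 2 or p110g-/- 3 left 18, 8 and 12. When the 8 TAM libraries entered the same fit and shared its estimate of the spread, 5 were called.

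Stretches of the promoters of 6 GTPase genes are printed here because these genes rose together and the reference holds interferon elements in them. They come from RefSeq (GRCm38.p6), each 110 bases long and written 5′ to 3′ on the strand of the gene. Capitals mark a GAS match, TTCNNNGAA, which is its own reverse complement, or an ISRE match, GAAANNGAAA or TTTCNNTTTC on the other strand. The authors used another build, mm9, so these positions describe the reference and not their files.
Igtp, chr11:58199446-58199555, plus strand: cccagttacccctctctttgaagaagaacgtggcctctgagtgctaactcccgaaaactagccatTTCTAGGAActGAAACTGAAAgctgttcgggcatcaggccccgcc
Irgm2, chr11:58214867-58214976, plus strand: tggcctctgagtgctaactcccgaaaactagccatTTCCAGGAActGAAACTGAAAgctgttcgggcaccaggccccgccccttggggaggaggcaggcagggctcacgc
Tgtp1, chr11:48992247-48992356, minus strand: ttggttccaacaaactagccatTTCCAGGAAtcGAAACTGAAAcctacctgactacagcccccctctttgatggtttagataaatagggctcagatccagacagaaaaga
Tgtp2, chr11:49064213-49064322, minus strand: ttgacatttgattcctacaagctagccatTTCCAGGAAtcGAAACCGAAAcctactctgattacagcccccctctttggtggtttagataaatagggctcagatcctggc
Irgm1, chr11:48871421-48871530, minus strand: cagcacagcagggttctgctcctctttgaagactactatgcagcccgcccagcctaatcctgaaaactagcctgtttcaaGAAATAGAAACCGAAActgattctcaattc
Gbp2, chr3:142620553-142620662, plus strand: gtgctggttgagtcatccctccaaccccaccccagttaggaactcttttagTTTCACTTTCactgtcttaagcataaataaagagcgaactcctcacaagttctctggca
In Igtp and Irgm2 the GAS match began 45 and 75 bases before the gene start and the ISRE match 34 and 64 bases before it. In Tgtp1 and Tgtp2 the GAS match began 88 and 81 bases before the start and the ISRE match 77 and 70. In these 4 genes 2 bases separate the elements, GAS first. Irgm1 held 2 overlapping ISRE matches, 30 and 24 bases before its start, and Gbp2 held an ISRE match on the other strand, 59 bases before it.

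Over windows from 250 bases before to 50 after the gene start, 8.30% of 32851 windows held the GAS match, 3.44% the ISRE match and 0.454% both. Of the GTPase genes, 10 had a window, of which 6 held a GAS match, 9 an ISRE match and 6 both. Of the type I interferon targets, 16 had a window, and the numbers were 3, 9 and 2. They were 2, 0 and 0 of 16 for T cell markers and 4, 2 and 0 of 17 for cytotoxic and NK cell markers. Among genes called higher, 212 had a window, and 32 (15.1%), 26 (12.3%) and 8 (3.77%) held a GAS match, an ISRE match and both. Among genes called lower, 193 had a window, and the numbers were 19 (9.84%), 4 (2.07%) and 0. Among the tested genes as a whole the shares were 8.50%, 3.92% and 0.476%. These are matches of letters, described without a test.

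Chemokines that draw T cells followed. Of 10 lymphocyte chemokine and receptor genes tested, 4 rose, none fell and the median log2 fold change was 1.17. The share called higher among all genes tested was 2.25%. Cxcl9 (gene ID 17329) held 95, 196 and 336 normalized counts in the WT libraries and 1299, 2259 and 2828 in the p110g-/- libraries, the widest rise of the list (log2 fold change 3.45, SE 0.45, adjusted p = 0.0142). Its libraries varied widely within each genotype, yet the genotypes did not overlap. Cxcl10 held 358, 603 and 639 in the WT libraries and 1053, 1384 and 1618 in the p110g-/- libraries, and Cxcl11, the other ligand of CXCR3, 4, 9 and 8 in the WT libraries and 18, 35 and 46 in the p110g-/- libraries. Xcl1, a chemokine made by T cells and NK cells, held 10, 25 and 19 in the WT libraries and 48, 61 and 95 in the p110g-/- libraries. Ccl5, chosen after its values were seen, held 48, 114 and 142 in the WT libraries and 132, 116 and 144 in the p110g-/- libraries and did not pass (log2 fold change 0.50, adjusted p = 0.42). Leaving out WT 2, p110g-/- 2 or p110g-/- 3 left none of the 4 called, WT 1 left 1, WT 3 left 2, and without p110g-/- 1 there were 5. In 1 fit with the TAM libraries 1 was called.

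**Figure D2:**
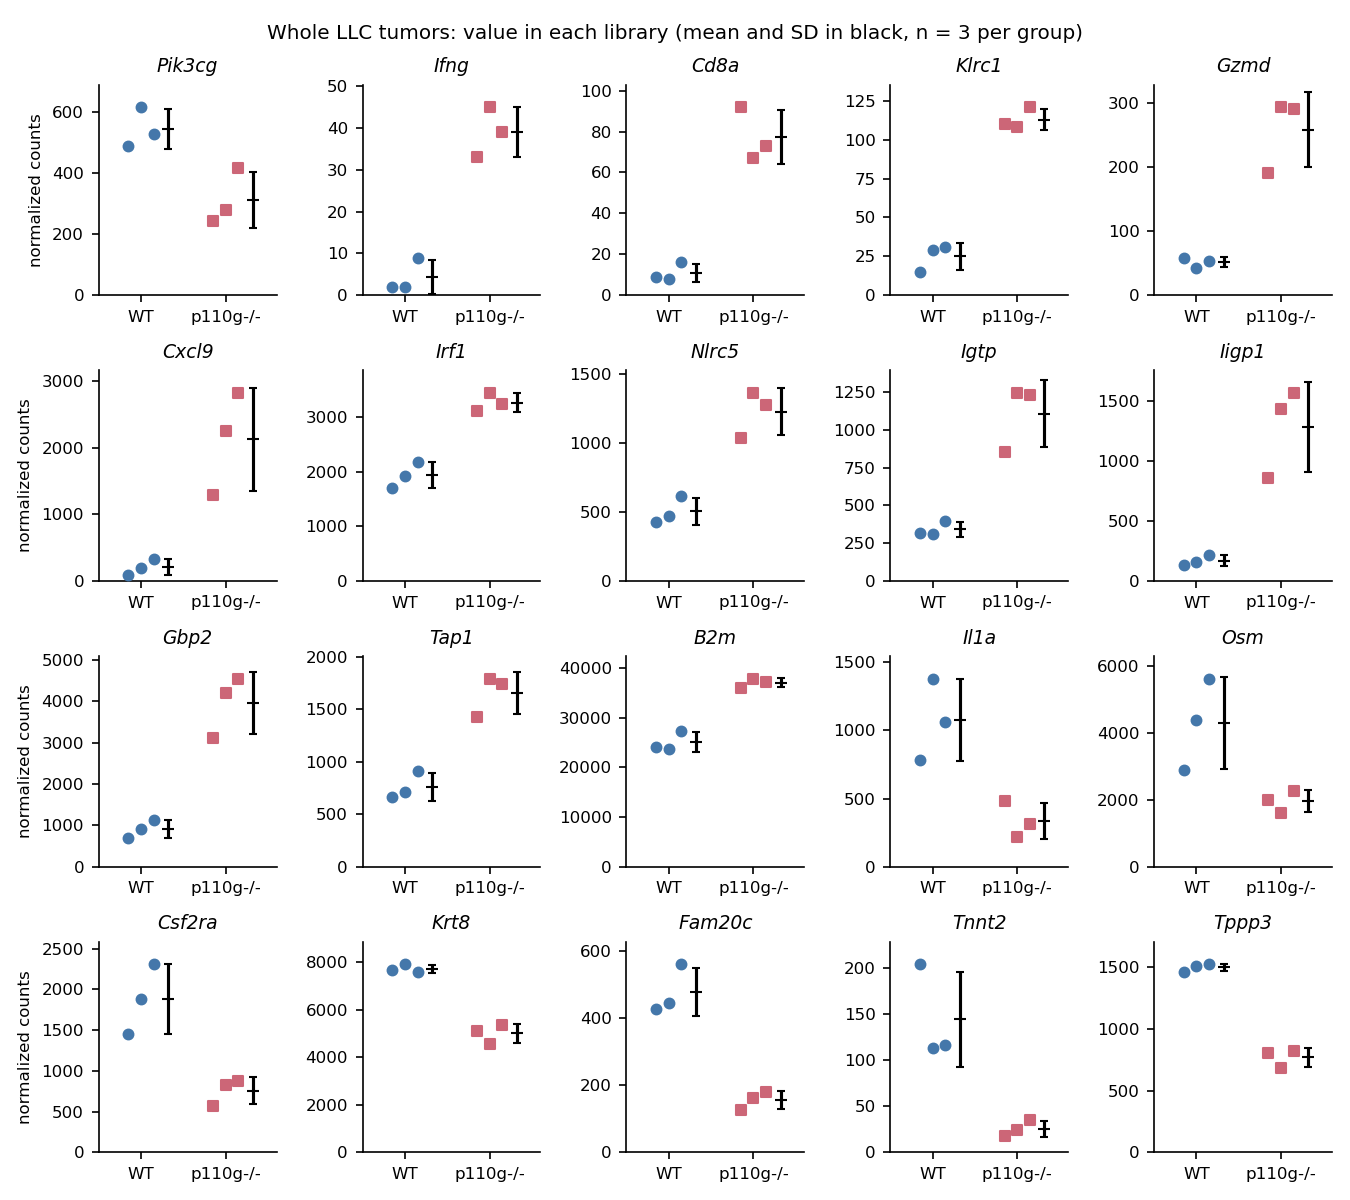
Normalized counts (vertical, from 0) of 20 genes in each whole tumor library, WT as blue circles and p110g-/- as red squares, with the mean and SD of 3 libraries in black. In every panel the 2 groups do not overlap, with Pik3cg, Il1a, Osm, Csf2ra, Krt8, Fam20c, Tnnt2 and Tppp3 lower in p110g-/- and the others higher. All genes shown but Pik3cg were called, and no called gene has groups that overlap.

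The MHC class I pathway, which shows peptides from inside the cell to CD8 T cells, rose across nearly all its steps. Of 18 members tested, 16 were called higher, none lower, and all 18 were positive, with a median log2 fold change of 0.54. The share called higher among all genes tested was 2.25%. The heavy chain partner B2m, beta-2 microglobulin, held 24205, 23792 and 27339 normalized counts in the WT libraries and 36117, 37921 and 37275 in the p110g-/- libraries. It rose by a modest amount with little spread (log2 fold change 0.57, SE 0.073, adjusted p = 0.0135). The classical heavy chain gene H2-K1 held 8176, 9775 and 11736 in the WT libraries and 16831, 20138 and 18574 in the p110g-/- libraries. Nlrc5 (gene ID 434341), the transactivator of class I genes, held 428, 469 and 614 in the WT libraries and 1036, 1361 and 1275 in the p110g-/- libraries (log2 fold change 1.29, SE 0.15, adjusted p = 0.0094). The immunoproteasome subunit gene Psmb9 held 246, 282 and 337 in the WT libraries and 585, 721 and 666 in the p110g-/- libraries, and the peptide transporter gene Tap1 662, 710 and 916 in the WT libraries and 1429, 1793 and 1745 in the p110g-/- libraries. Psmb8, Psmb10 and Psme2 of the proteasome, Tap2, Tapbp, Tapbpl and Erap1 of peptide loading and trimming, and H2-Q4, H2-Q6, H2-Q7 and H2-T23 were the other members called. Their log2 fold changes ran from 0.26 (Psme2) to 1.44 (H2-Q6). H2-T9, outside the list and named by rank, held 1675, 1747 and 1701 in the WT libraries and 2407, 2637 and 2503 in the p110g-/- libraries.

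The rise was graded, with the largest log2 fold changes among the members called in the H2-Q genes, Nlrc5, Psmb9 and Tap1 and the smallest in Psme2, Erap1 and Tapbp. Leaving out WT 1, WT 2 or WT 3 left 8, 1 and 12 members called, and leaving out p110g-/- 1, p110g-/- 2 or p110g-/- 3 left 17, 1 and 2. In 1 fit with the TAM libraries 1 member was called. B2m carries an ISRE match 139 bases before its start in the RefSeq window (chr2:122147527-122147636, plus strand), printed with the match in capitals because B2m had the highest normalized counts of the members that rose.
B2m: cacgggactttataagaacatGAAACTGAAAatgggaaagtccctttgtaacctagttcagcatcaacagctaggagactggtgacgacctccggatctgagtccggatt
Of 15 members with a window, 4 held an ISRE match and 2 a GAS match. MHC class II genes did not pass. Of 11 tested none was called, 10 were positive and the median log2 fold change was 0.37. Ciita, the class II transactivator, held 72, 158 and 275 normalized counts in the WT libraries and 157, 342 and 355 in the p110g-/- libraries (adjusted p = 0.308) and H2-DMb2 84, 106 and 228 in the WT libraries and 76, 78 and 108 in the p110g-/- libraries (adjusted p = 0.356), and in both the genotypes overlapped.

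Of 23 type I interferon target genes tested in whole tumors, 1 rose and 1 fell, against 2.25% and 2.1% of all genes tested. Of the 23, 20 were positive and 3 negative, with a median log2 fold change of 0.27. The groups did not overlap in 6 that were higher and 1 that was lower, against 15.7% and 15.4% of all genes tested. Zbp1, a sensor of nucleic acids in the Z conformation, held 244, 252 and 317 normalized counts in the WT libraries and 411, 488 and 595 in the p110g-/- libraries. Ifi27l2a, an interferon-induced gene, fell from 539, 536 and 616 to 368, 296 and 437 in the 3 libraries of each genotype (log2 fold change −0.63, adjusted p = 0.0497). Both calls were lost without WT 1, WT 2, p110g-/- 2 or p110g-/- 3, that of Ifi27l2a also without WT 3, and without p110g-/- tumor 1, 11 members were higher and 1 lower.

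T cell markers were low in WT tumors, and every tested marker had a positive log2 fold change in p110g-/- tumors. In pieces of whole tumor, more cells of a type and more RNA per cell cannot be told apart. Of 24 markers tested, 8 rose and none fell, all 24 were positive, and the median log2 fold change was 1.30. In 17 of the 24 the groups did not overlap. Among all genes tested, 15.7% were higher without overlap and 2.25% were called higher. Summed over the list, WT libraries held 731 to 1459 normalized counts and p110g-/- libraries 1790 to 2501. Cd8a (gene ID 12525), the CD8 alpha chain of cytotoxic T cells, held 9, 8 and 16 normalized counts in the WT libraries and 92, 67 and 73 in the p110g-/- libraries (log2 fold change 2.75, SE 0.29, adjusted p = 0.00823), and Cd8b1 8, 14 and 9 in the WT libraries and 48, 26 and 32 in the p110g-/- libraries. The T cell receptor complex genes Cd3d and Cd3g held 20, 26 and 38 in the WT libraries and 77, 57 and 75 in the p110g-/- libraries and 13, 16 and 40 in the WT libraries and 81, 67 and 100 in the p110g-/- libraries. Cd27, a costimulatory receptor, and the signalling genes Lck and Skap1 were also called, with log2 fold changes of 1.22 (Skap1) to 1.62 (Lck). Cd4 held 22, 45 and 57 in the WT libraries and 74, 86 and 132 in the p110g-/- libraries and Foxp3, the factor of regulatory T cells, 18, 20 and 44 in the WT libraries and 44, 41 and 69 in the p110g-/- libraries. Both were chosen after their values were seen, and neither passed (log2 fold change 1.27 and 0.96, adjusted p = 0.0833 and 0.154). Without WT 1, WT 2 or p110g-/- 3, 1 member was called in each case, without p110g-/- 2 none, without WT 3 7 and without p110g-/- 1 8. None was called in 1 fit with the TAM libraries.

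Cytotoxic and NK cell markers moved with them. Of 20 tested, 8 rose, Ifng among them, and none fell, against 2.25% called higher and 2.1% lower among all genes tested. Of the 20, 19 were positive and the median log2 fold change was 1.43. Klrc1, which encodes the receptor NKG2A, held 15, 29 and 31 normalized counts in the WT libraries and 110, 108 and 121 in the p110g-/- libraries, and Nkg7, a cytotoxic granule protein gene, 24, 42 and 43 in the WT libraries and 117, 125 and 151 in the p110g-/- libraries. Prf1, perforin, held 34, 44 and 47 in the WT libraries and 94, 173 and 172 in the p110g-/- libraries (log2 fold change 1.75, SE 0.26, adjusted p = 0.0224). Gzmc, Ctsw, Il2rb and Klre1 were also called, with log2 fold changes of 1.48 (Ctsw) to 2.02 (Gzmc). The granzymes split. Gzmd, outside the list and named by rank, held 58, 43 and 53 in the WT libraries and 190, 293 and 290 in the p110g-/- libraries (log2 fold change 2.29, SE 0.20, adjusted p = 0.00743), and Gzme, Gzmf and Gzmg of the same cluster, chosen after their values were seen, had log2 fold changes of 1.88, 2.34 and 2.43. Gzmb held 75, 122 and 155 in the WT libraries and 197, 324 and 408 in the p110g-/- libraries and did not pass (adjusted p = 0.0549). Gzma held 53, 64 and 116 in the WT libraries and 43, 47 and 78 in the p110g-/- libraries, with overlapping groups and a negative log2 fold change of −0.43. Gzma and Gzmb were chosen after their values were seen. Leaving out WT 2, p110g-/- 2 or p110g-/- 3 left none of the 8 called, WT 1 left 2, WT 3 left 6, and without p110g-/- 1 there were 14. None was called in 1 fit with the TAM libraries.

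Among 19 checkpoint and costimulatory genes, 3 rose, none fell and the median log2 fold change was 0.36. The share called higher among all genes tested was 2.25%. Pdcd1, which encodes PD-1, held 4, 10 and 20 normalized counts in the WT libraries and 66, 43 and 62 in the p110g-/- libraries, Lag3 26, 30 and 45 in the WT libraries and 85, 106 and 93 in the p110g-/- libraries, and Tnfsf10, which encodes the death ligand TRAIL, 26, 38 and 43 in the WT libraries and 74, 118 and 131 in the p110g-/- libraries. In all 3 the lowest p110g-/- library was above the highest WT library, as in every gene called higher. Cd274, which encodes PD-L1 and was chosen after its values were seen, held 839, 1317 and 1276 in the WT libraries and 1575, 1488 and 1771 in the p110g-/- libraries and did not pass (log2 fold change 0.52, adjusted p = 0.107). None of the 3 stayed called without WT 1, WT 2, p110g-/- 2 or p110g-/- 3, 2 members were called without WT 3 and 5 without p110g-/- 1. None of the 6 tested B and plasma cell markers was called. Jchain held 9, 12 and 32 in the WT libraries and 26, 38 and 63 in the p110g-/- libraries and Pax5 191, 194 and 200 in the WT libraries and 240, 204 and 208 in the p110g-/- libraries.

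The calls among myeloid cell markers are set beside the 4.35% of all genes tested that were called. None of 20 macrophage markers was called, 17 were positive, and the median log2 fold change was 0.11. The list summed to 231122 to 283566 normalized counts in WT and 225999 to 327776 in p110g-/-. Aif1 and Ms4a7 came closest, at 381, 423 and 539 normalized counts in the WT libraries and 559, 639 and 835 in the p110g-/- libraries and 1367, 1635 and 1728 in the WT libraries and 1753, 2144 and 2590 in the p110g-/- libraries (adjusted p = 0.0871 and 0.11), and without p110g-/- 1 3 members were called higher. Of 13 monocyte markers 1 rose, Hp, which encodes haptoglobin, at 454, 453 and 391 in the WT libraries and 882, 603 and 816 in the p110g-/- libraries. Of the 13, 7 were positive, and the median was 0.20. The groups did not overlap in 6 that were higher and 1 that was lower, against 15.7% and 15.4% of all genes tested. None of 16 neutrophil markers was called, with a median of 0.36, and Csf3r and Cxcr2 were highest in p110g-/- tumor 1, at 2470, 1578 and 2325 and 830, 436 and 709 in the 3 p110g-/- libraries against 995, 1476 and 1347 and 308, 412 and 394 in WT. Of 7 mast cell, basophil and eosinophil markers 2 rose, all 7 were positive, and the median was 0.70. In 3 of the 7 the groups did not overlap, against 15.7% of all genes tested. Ccr3, the eotaxin receptor, held 15, 22 and 12 in the WT libraries and 39, 62 and 55 in the p110g-/- libraries, and Kit, the stem cell factor receptor, 72, 101 and 90 in the WT libraries and 141, 140 and 196 in the p110g-/- libraries.

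Dendritic cell markers held wide differences that did not pass. Ccl17 held 16, 40 and 178 normalized counts in the WT libraries and 3, 4 and 5 in the p110g-/- libraries and Ccl22 97, 198 and 390 in the WT libraries and 65, 63 and 88 in the p110g-/- libraries, both ligands of CCR4. The 3 p110g-/- libraries lay below every WT library in each, but the WT libraries themselves ranged widely (log2 fold change −3.34, SE 0.76, adjusted p = 0.0518, and −1.45, SE 0.44, adjusted p = 0.0965). Ccl17 passed without WT 1. None of the 16 dendritic markers was called and their median was 0.20.

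Inflammatory mediators were called in both directions. Of 24 genes of the IL-1 and IL-6 families and related mediators, 2 rose and 3 fell, with a median log2 fold change of 0.05. The shares called among all genes tested were 2.25% higher and 2.1% lower. Nos2 (gene ID 18126), the inducible nitric oxide synthase, held 591, 786 and 739 normalized counts in the WT libraries and 2440, 1493 and 1578 in the p110g-/- libraries, highest in p110g-/- tumor 1 (log2 fold change 1.35, SE 0.19, adjusted p = 0.0186). Il6st, the shared receptor chain gp130, held 3629, 3515 and 3866 in the WT libraries and 4395, 4336 and 4390 in the p110g-/- libraries, a small rise with tight groups. Csf2ra, the GM-CSF receptor alpha chain, held 1458, 1884 and 2307 in the WT libraries and 571, 833 and 874 in the p110g-/- libraries, and Il1a, an IL-1 receptor ligand, 781, 1381 and 1060 in the WT libraries and 479, 220 and 311 in the p110g-/- libraries. Osm, which encodes oncostatin M, a ligand that signals through gp130, held 2871, 4387 and 5615 in the WT libraries and 2001, 1607 and 2272 in the p110g-/- libraries (log2 fold change −1.09, SE 0.23, adjusted p = 0.0436). Il1b, Il6 and Tnf, chosen after their values were seen, had overlapping groups and log2 fold changes of −0.13, −0.72 and −0.38. Each of the 5 calls was lost without WT 2, p110g-/- 2 or p110g-/- 3 and without 1 or 2 further WT libraries. Of 19 myeloid chemokine and receptor genes only Ccr3 was called, and Cxcr4 held 1887, 2574 and 2869 in the WT libraries and 2978, 3563 and 3886 in the p110g-/- libraries (adjusted p = 0.0959).

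None of 22 immune-suppressive and alternative activation genes was called, with a median of −0.09. The groups did not overlap in 5 that were lower, against 15.4% of all genes tested. Tgfb2 and Nt5e, which encode transforming growth factor beta 2 and the ecto-enzyme CD73, came closest, at 143, 142 and 108 normalized counts in the WT libraries and 64, 71 and 100 in the p110g-/- libraries and 1357, 1270 and 951 in the WT libraries and 669, 787 and 946 in the p110g-/- libraries (adjusted p = 0.0741 and 0.0796). Arg1, which encodes arginase 1 and was chosen after its values were seen, held 13640, 13816 and 21932 in the WT libraries and 11136, 9203 and 13134 in the p110g-/- libraries (adjusted p = 0.141). Of 15 NF-kB subunit and inhibitor genes 1 rose, Birc3, which encodes the ubiquitin ligase cIAP2, at 861, 998 and 1044 in the WT libraries and 1246, 1261 and 1412 in the p110g-/- libraries, and Ikbke held 689, 771 and 809 in the WT libraries and 888, 1011 and 1062 in the p110g-/- libraries (adjusted p = 0.0555). Of 24 C/EBP, AKT and mTOR pathway genes 1 fell, Ddit4, an inhibitor of mTORC1, at 3458, 3478 and 3160 in the WT libraries and 2796, 2198 and 2529 in the p110g-/- libraries, and Rictor held 1247, 1183 and 1174 in the WT libraries and 1301, 1506 and 1384 in the p110g-/- libraries (adjusted p = 0.0986). The list medians were 0.11 for the NF-kB genes and 0.072 for the C/EBP, AKT and mTOR genes. Among all genes tested, 4.35% were called in either direction. Each of the calls of Hp, Ccr3, Kit, Birc3 and Ddit4 was lost in at least 4 of the 6 comparisons with 1 library left out.

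**Figure D3:**
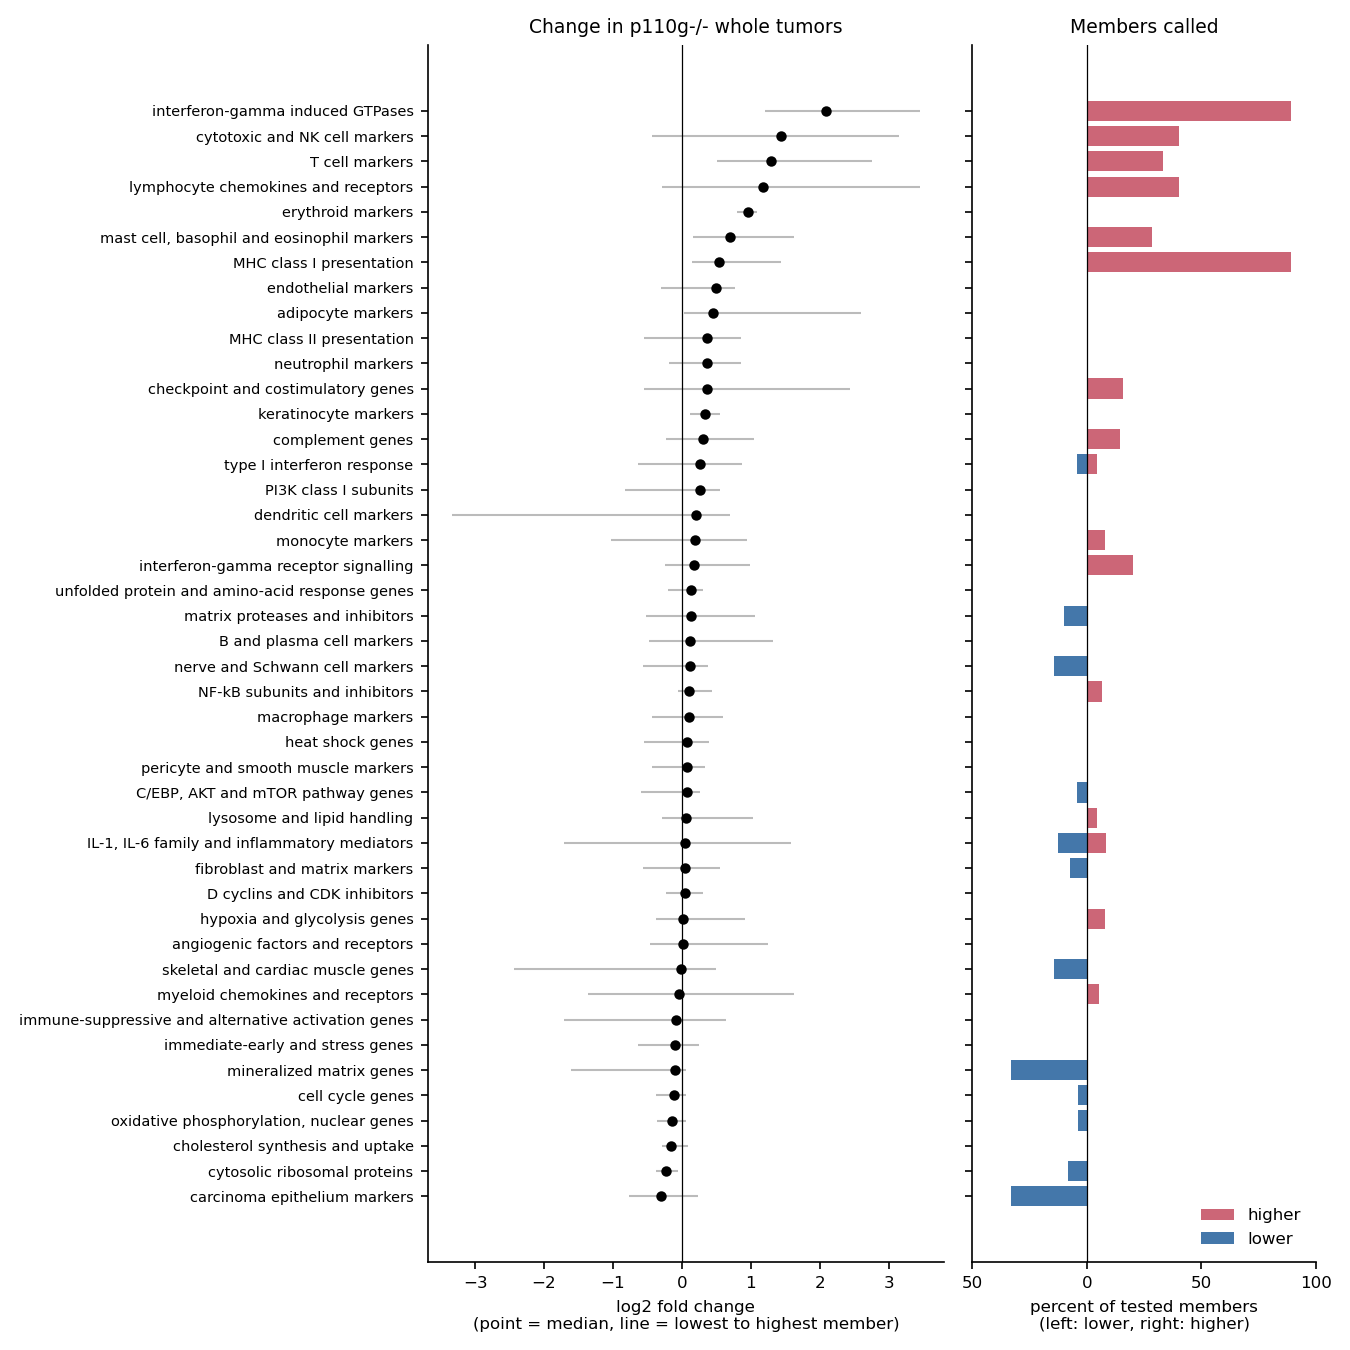
Left, median log2 fold change in p110g-/- whole tumors (point) and lowest to highest member (line) of each of the 44 gene lists. Right, percent of tested members called higher (red) or lower (blue). The interferon-gamma induced GTPases have the highest median, 2.09, and carcinoma epithelium markers the lowest, −0.30.

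Carcinoma keratins fell. Krt8 (gene ID 16691) held 7655, 7911 and 7586 normalized counts in the WT libraries and 5125, 4539 and 5344 in the p110g-/- libraries and its partner Krt18 6150, 6654 and 6878 in the WT libraries and 4843, 4561 and 5047 in the p110g-/- libraries (log2 fold change −0.63, SE 0.066, adjusted p = 0.00818, and −0.45, SE 0.061, adjusted p = 0.0164). The WT values of Krt8 lay close together, and every p110g-/- value was far below them. They were the 2 called of 6 carcinoma epithelium markers tested, with a median of −0.30 and list sums of 32534 to 37112 in WT and 25898 to 29136 in p110g-/-. The share called lower among all genes tested was 2.1%. Krt8 lost its call without WT 2, and Krt18 without WT 2 or p110g-/- 2. Tead2, a transcription factor of the Hippo pathway, held 2140, 2157 and 2079 in the WT libraries and 1621, 1599 and 1546 in the p110g-/- libraries, and H2afx, the histone variant H2A.X, 2152, 2019 and 2222 in the WT libraries and 1593, 1484 and 1515 in the p110g-/- libraries.

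Of 9 genes of mineralized matrix tested, 3 fell and none rose, with a median log2 fold change of −0.10. The counts here stand beside 2.1% called lower among all genes tested. Fam20c (gene ID 80752), a kinase of secreted phosphoproteins, held 427, 445 and 560 normalized counts in the WT libraries and 126, 161 and 180 in the p110g-/- libraries (log2 fold change −1.62, SE 0.16, adjusted p = 0.00743), and this call held without each library. Enpp1, which makes pyrophosphate, held 232, 219 and 275 in the WT libraries and 116, 129 and 160 in the p110g-/- libraries, and Dmp1, dentin matrix protein 1, 176, 112 and 153 in the WT libraries and 48, 75 and 70 in the p110g-/- libraries. Dmp1 and Enpp1 were called only with all 6 libraries or without p110g-/- 1. Fibroblast and matrix markers were centred near 0, at a median of 0.05, with 2 of 27 called lower, Col6a2 at 23982, 19354 and 22249 in the WT libraries and 13716, 15608 and 15067 in the p110g-/- libraries and Col5a1 at 8991, 9104 and 8734 in the WT libraries and 6932, 7629 and 7098 in the p110g-/- libraries. Both were lost without any library other than p110g-/- 1. Mmp11, a stromal protease, and Plaur, the urokinase receptor, were the 2 of 20 matrix proteases and inhibitors called, both lower, with Mmp11 at 1301, 1334 and 1271 in the WT libraries and 847, 957 and 924 in the p110g-/- libraries and Plaur at 3657, 4334 and 4698 in the WT libraries and 3145, 2577 and 3171 in the p110g-/- libraries. Mmp11 lost its call without WT 2, and Plaur without any library other than p110g-/- 1.

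The strongest falls by p-value had varied roles. Tppp3 (gene ID 67971), a tubulin-binding protein, held 1463, 1508 and 1522 normalized counts in the WT libraries and 804, 682 and 824 in the p110g-/- libraries, with almost no spread in WT (log2 fold change −0.96, SE 0.079, adjusted p = 0.00743). Cpe, carboxypeptidase E, a prohormone-processing enzyme, held 3970, 4103 and 3914 in the WT libraries and 2923, 2744 and 2688 in the p110g-/- libraries, and Lpcat2, which makes platelet-activating factor, 643, 689 and 664 in the WT libraries and 312, 309 and 384 in the p110g-/- libraries. Rgs18, a regulator of G protein signalling in blood cells, held 97, 123 and 139 in the WT libraries and 36, 26 and 36 in the p110g-/- libraries, the widest fall of the 12 genes named by rank. Sulf2, a sulfatase of heparan sulfate, held 2885, 3059 and 3054 in the WT libraries and 1680, 1810 and 2082 in the p110g-/- libraries and the small GTPase gene Arl4c 5375, 5068 and 5489 in the WT libraries and 3702, 3759 and 4020 in the p110g-/- libraries. H1f0, a linker histone gene, and Prkcdbp, a caveolar protein gene, had log2 fold changes of −0.54 and −0.44. Rgs18 and H1f0 lost their calls without WT 2, Arl4c and H2afx without p110g-/- 2, and Sulf2, Prkcdbp and Tead2 without either. Among the rises by rank, Slc13a3, a dicarboxylate transporter gene, was the gene outside the immune groups, at 211, 224 and 183 in the WT libraries and 563, 436 and 566 in the p110g-/- libraries.

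Vessel, nerve, muscle and other tissue markers were mostly not called, set beside 4.35% called among all genes tested. Of 21 endothelial markers none passed, and 19 were positive with a median of 0.49. In 9 of the 21 the groups did not overlap, all higher, against 15.7% of all genes tested. Kdr, the VEGF receptor 2, held 87, 140 and 86 normalized counts in the WT libraries and 174, 160 and 187 in the p110g-/- libraries and Ecscr 169, 173 and 199 in the WT libraries and 242, 217 and 261 in the p110g-/- libraries (adjusted p = 0.0685 and 0.0793). None of 16 angiogenic factors and receptors was called. Angpt2 held 218, 249 and 202 in the WT libraries and 322, 287 and 337 in the p110g-/- libraries (adjusted p = 0.05, at the edge of the threshold) and Thbs2 9503, 8892 and 8203 in the WT libraries and 11454, 10211 and 12071 in the p110g-/- libraries (adjusted p = 0.0552). None of 13 pericyte and smooth muscle markers was called, with Acta2 at 486, 542 and 477 in the WT libraries and 717, 642 and 551 in the p110g-/- libraries and Pdgfrb at 2291, 1239 and 1595 in the WT libraries and 1294, 1199 and 1288 in the p110g-/- libraries.

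Of 7 muscle genes 1 fell, Tnnt2, cardiac troponin T, at 204, 113 and 116 normalized counts in the WT libraries and 18, 24 and 35 in the p110g-/- libraries, where WT 1 was the highest (adjusted p = 0.013). The giant sarcomere protein gene Ttn held 14, 9 and 10 in the WT libraries and 10, 18 and 21 in the p110g-/- libraries. Of 7 nerve and Schwann cell markers 1 fell, Nefl, a neurofilament gene, at 283, 331 and 344 in the WT libraries and 208, 228 and 210 in the p110g-/- libraries, and Pmp22 held 1514, 1603 and 1586 in the WT libraries and 1292, 1168 and 1589 in the p110g-/- libraries. Tnnt2 lost its call without WT 2 or p110g-/- 2, and Nefl without any library other than p110g-/- 1. Erythroid markers had a median of 0.96 with none of 5 called. Hba-a1, an alpha globin gene, held 1493, 1060 and 245 in the WT libraries and 882, 2676 and 1001 in the p110g-/- libraries and Alas2 111, 92 and 16 in the WT libraries and 70, 263 and 91 in the p110g-/- libraries, with WT 3 the lowest library and p110g-/- 2 the highest in both. None of 5 adipocyte and 3 keratinocyte markers was called. Cfd, the adipsin gene, held 34, 25 and 3 in the WT libraries and 42, 134 and 137 in the p110g-/- libraries and Lpl 889, 1066 and 904 in the WT libraries and 1176, 1471 and 1222 in the p110g-/- libraries, and the keratinocyte genes Sbsn and Krt10 130, 162 and 172 in the WT libraries and 254, 224 and 203 in the p110g-/- libraries and 22, 20 and 18 in the WT libraries and 25, 26 and 25 in the p110g-/- libraries.

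Of 14 complement genes 2 rose, C2 at 64, 63 and 65 normalized counts in the WT libraries and 124, 131 and 144 in the p110g-/- libraries and the protease gene C1s1 at 623, 756 and 761 in the WT libraries and 1471, 1058 and 1109 in the p110g-/- libraries, both lost without WT 2, p110g-/- 2 or p110g-/- 3, and C1s1 also without WT 1 or WT 3. Of 25 hypoxia and glycolysis genes 2 rose, the glucose transporter gene Slc2a3 at 454, 687 and 461 in the WT libraries and 1227, 854 and 935 in the p110g-/- libraries and Pfkfb3, which drives glycolysis, at 1814, 2103 and 1961 in the WT libraries and 3080, 2479 and 3041 in the p110g-/- libraries, with a list median of 0.018. Of 23 lysosome and lipid genes 1 rose, Atp6v1a of the proton pump, at 4752, 5049 and 4584 in the WT libraries and 5544, 5803 and 6091 in the p110g-/- libraries, and Cd36 held 1532, 1533 and 1895 in the WT libraries and 3183, 2032 and 2898 in the p110g-/- libraries (adjusted p = 0.0566). These counts stand beside 2.25% called higher among all genes tested. The calls of Slc2a3 and Atp6v1a were lost without any library other than p110g-/- 1. That of Pfkfb3 was lost without WT 1, WT 2, WT 3 or p110g-/- 3. No member was called among 14 heat shock genes, 19 unfolded protein and amino-acid response genes, 21 immediate-early and stress genes, 17 cholesterol genes or 10 D cyclins and CDK inhibitors. Their smallest p-values belonged to Hsph1 and Dnajb1, Edem1 and Hspa5, Jund and Egr3, Srebf2 and Mvk, and Cdkn2d and Ccnd2, with adjusted p from 0.0668 (Hsph1) to 0.183 (Hspa5). Jund passed without WT 1 or p110g-/- 1, and Hsph1, Edem1, Srebf2 and Cdkn2d passed without p110g-/- 1.

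Ribosomal protein, respiratory chain and cell cycle genes had slightly negative medians. Of all genes tested, 15.4% were lower without overlap and 2.1% were called lower. All 24 ribosomal protein genes tested were negative, 22 of them without overlap, with a median of −0.23, but only 2 were called, Rpl38 at 8745, 7891 and 8254 normalized counts in the WT libraries and 6809, 6122 and 6649 in the p110g-/- libraries and Rps20 at 21551, 20477 and 22977 in the WT libraries and 18202, 15294 and 16736 in the p110g-/- libraries. Of 25 nuclear genes of oxidative phosphorylation 23 were negative, 17 without overlap, with a median of −0.14 and 1 called, Cox8a at 4112, 4392 and 4782 in the WT libraries and 3443, 3267 and 3608 in the p110g-/- libraries. Cox5a held 2416, 2410 and 2404 in the WT libraries and 2124, 2069 and 2213 in the p110g-/- libraries (adjusted p = 0.0692). Of 26 cell cycle genes 23 were negative, 4 of them without overlap against 15.4% of all genes tested, with a median of −0.12 and 1 called, the cyclin gene Ccnb2 at 2461, 2376 and 2167 in the WT libraries and 1989, 1730 and 1671 in the p110g-/- libraries, and Cdc20 held 2920, 2934 and 2693 in the WT libraries and 2581, 2071 and 2066 in the p110g-/- libraries (adjusted p = 0.0669). Without p110g-/- tumor 1 the calls were 19, 8 and 9 in these 3 lists, all lower, and without any other library there were none.

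Transcript length moved with the genotype difference. Over 12585 tested genes with an annotated transcript, the median log2 fold change was −0.14 for 465 genes whose longest transcript was up to 1000 bases, −0.072 from 1000 to 2000, −0.011 from 2000 to 4000, 0.053 from 4000 to 8000 and 0.13 for 714 genes over 8000 bases. In the shortest class 2.80% of genes were called higher and 6.45% lower, and in the longest 5.46% and 0.980%. The median longest transcript was 4027 bases for genes called higher, 2272 for genes called lower and 3444 for all genes tested. It was 1309 bases for the ribosomal protein genes and 1697 for the oxidative phosphorylation genes. Among genes called higher it was 4750 bases for those in no list, while the GTPases had 3455, the MHC class I genes 2474, the T cell markers 2544.5 and the cytotoxic markers 2195. The medians of these 4 lists, taken over all their tested members, lay in the class from 2000 to 4000 bases. The part of length in the calls, in or outside the lists, was not tested.

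**Figure D4:**
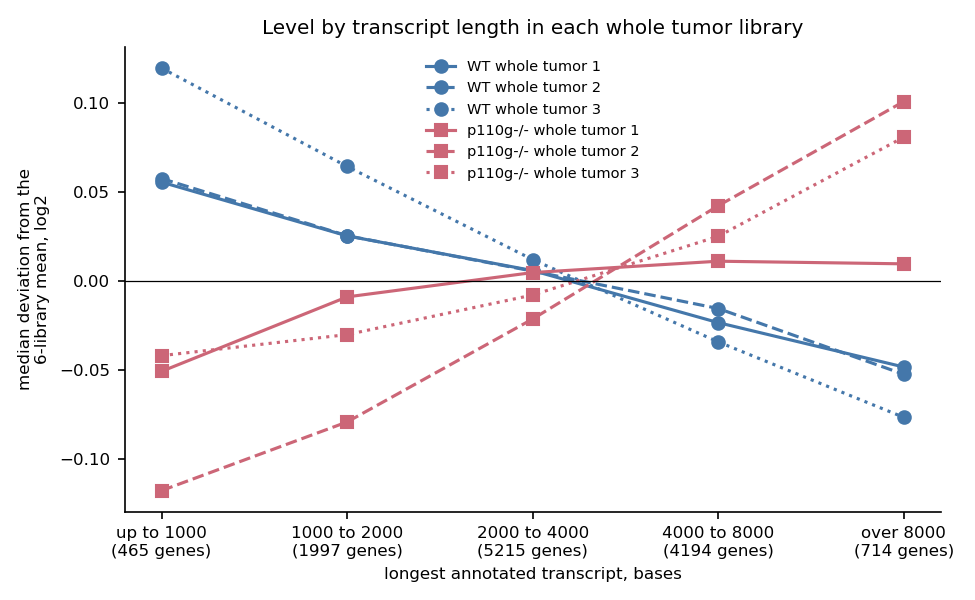
Median deviation from the 6-library mean on the log2 scale (vertical) of the genes in 5 classes of longest transcript (horizontal), 1 line per whole tumor library. The 3 WT lines fall with length and those of p110g-/- tumors 2 and 3 rise, while p110g-/- tumor 1 is flatter above 2000 bases.

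The sorted TAM gave the same comparison in other libraries. The 2 tables were normalized separately, so only differences within each are set side by side. Of the genes called higher in tumors, 269 were tested in TAM and 126 had a positive log2 fold change there, with a median of −0.031. Of those called lower, 261 were tested and 189 were negative, with a median of −0.11. Over all 12396 genes tested in both, 46.7% were positive in TAM. The genes called in both comparisons were 4 of the 553 called in tumors and 4 of 14 called in TAM, all with the same sign. They were Cacna1a, a calcium channel gene (0.91 in tumors and 2.89 in TAM), H60b, an NKG2D ligand gene (1.17 and 2.97), Hddc3 (1.67 and 2.57) and Hdac9, a histone deacetylase gene (−1.24 and −2.41).

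The GTPases and the MHC class I genes had negative medians in TAM, with no member called there. The median log2 fold change of the GTPases was 2.09 in tumors and −0.24 in TAM, where 15 of 18 were negative. For MHC class I genes it was 0.54 and −0.23, with 17 of 18 negative in TAM. Type I interferon targets had 0.27 in tumors and −1.48 in TAM, where 23 of 23 were negative. The lymphocyte chemokine and receptor genes had 1.17 in tumors and 0.023 in TAM, where 4 of 9 were negative and Cxcl9 had a log2 fold change of 1.16, none of them called. T cell markers had 1.30 in tumors and 0.088 in TAM. Fibroblast and matrix genes had 0.05 and −0.86, with none called in TAM. There the SE was 1.55 for Col5a1 and 1.43 for Col6a2. Scaled to column totals, 25 of the 27 matrix genes were 2-fold or more below the tumor in TAM. Immediate-early genes had −0.10 and 0.44, with none called in TAM. By level, scaled to the column totals of the separately normalized tables, 25.5% of the genes called higher were 2-fold or more above the tumor in TAM, against 10.9% of all genes tested, and 37.1% of the genes called lower were 2-fold or more below it, against 19.4%.

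**Figure D5:**
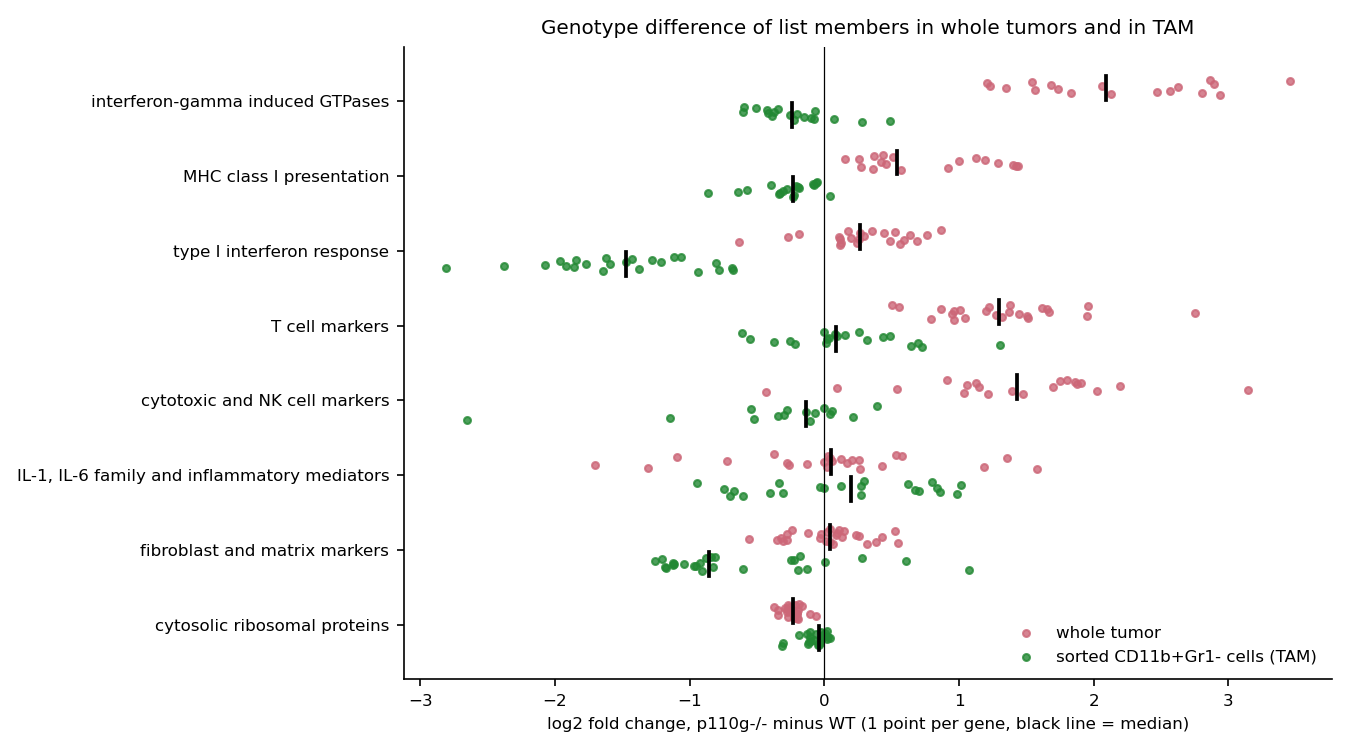
Log2 fold change, p110g-/- minus WT (horizontal), of each tested member of 8 gene lists in whole tumors (red) and sorted TAM (green), with the list median as a black line. The GTPases sit at a median of 2.09 in tumors and −0.24 in TAM.

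The difference between the TAM effect and the tumor effect was tested as an interaction over all 14 libraries and 12486 genes. It was called in 18 genes, 0.144%, of which 13 had the lower effect in TAM and 5 the higher. Among the named genes these were Iigp1, Gm4951, Ifi47, H2-Q6, H2-T9, Psmb9 and Ccnd2 on the lower side and Rgs18 on the higher side. For Iigp1 the effect was 2.89 in tumors and −0.071 in TAM, a difference of −2.97 (SE 0.42, adjusted p = 0.0268). For Psmb9 it was 1.19 and −0.20, a difference of −1.39 (SE 0.20, adjusted p = 0.0268). Rgs18 fell in tumors and had a log2 fold change of −0.21 in TAM (difference 1.63, adjusted p = 0.0312). With 1 tumor library left out, 2 (WT 1), 0 (WT 2), 7 (WT 3), 3 (p110g-/- 1), 0 (p110g-/- 2) and 3 (p110g-/- 3) genes were called, and 1 of the last 3 was not among the 18.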

How the data were processed

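RNA of 6 whole tumor libraries was compared, 3 per genotype, and 8 sorted TAM libraries were set beside them. The submitters' processing notes name Bowtie2, DESeq and build mm9 without versions or order. For the counter and the annotation, the sources used here give nothing. The deposited whole numbers are a score: they look like gene counts that the authors scaled by 1 factor per library and rounded, as judged from the values, and are called normalized counts. A step finder that estimates depth recovered the step within 1% in 6 of 6 simulated libraries. Symbols that had become dates (21) were restored from the gene identifier.

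limma 3.58.1 (R 4.3.3) was fitted to log2(normalized count + 1), with the prior on the spread following the mean, over the 6 tumor libraries, for genes with at least 10 normalized counts in 3 libraries, and 207 genes were not tested. Fold changes on that scale understate low genes. P-values were two-sided and adjusted by the Benjamini-Hochberg method, and called means adjusted p below 0.05. On data simulated for this comparison over 12718 genes the test found 39 of 50 genes lowered and 46 of 50 raised by 1 on the log2 scale, 49 and 48 of 50 by 2, and 7 of 189 calls were false. The changed genes were drawn from those with a mean above 50 normalized counts, and noise was drawn for each gene separately. The simulation therefore does not describe lower genes such as Ifng and Cd8a, or shifts shared across a library. The interaction was fitted over all 14 libraries. Named genes were Pik3cg, the 12 higher and 12 lower called genes with the smallest p that reached a mean of 100 in 1 group without overlap, and, in each of 44 lists (809 genes, 708 of them in the table), every called member or else the 2 with the smallest p. A few of these genes are not reported here. Members, lists and rule were chosen with earlier results of these data known. The alternatives were other pseudocounts, filters, scalings, priors, sample weights, joint and blocked fits, and leaving out each library. Identifiers were matched to a reference of another build (12840 matched), so no coordinates of genes are given beyond the RefSeq promoter stretches. Transcript lengths are the longest in GENCODE.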

Additional observations from a re-analysis of the deposited data

Results flagged for a closer look

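In 8 named genes the genotype effect differed between sorted TAM and whole tumors by the limma interaction test over 14 libraries. The effect in TAM was lower than that in tumors by a log2 difference of −2.97 for Iigp1, −2.83 for Gm4951, −2.67 for Ifi47, −2.31 for H2-Q6, −1.39 for Psmb9, −1.0 for H2-T9 and −0.93 for Ccnd2, and higher by 1.63 for Rgs18. Their adjusted p ran from 0.027 (Iigp1, Psmb9, Ccnd2) to 0.033 (Ifi47). In 6 of them, Iigp1, Gm4951, Ifi47, Psmb9, H2-T9 and H2-Q6, the tumor effect was a called rise, in Rgs18 it was a called fall, and Ccnd2 was not called in tumors (log2 fold change 0.25 in tumors and −0.68 in TAM). Gm4951 lost its call after quantile normalization (adjusted p = 0.132), and Ifi47 and H2-T9 lost theirs with a constant prior on the spread (adjusted p = 0.0504 each). No gene kept its interaction call without WT tumor 2 or p110g-/- tumor 2. H2-Q6 and H2-T9 belong to near-identical genes and their values are uncertain.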

How the results depend on the processing

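No named gene changed sign under any alternative in which it was tested. A list median was scored as moved when it shifted by at least the SD of the list mean between libraries of a genotype. Of the 44 lists, 7 moved with a minimum of 100, 3 after quantile normalization and 2 with sample quality weights. With 1 library left out 0 to 3 moved, and under the other alternatives 0. With 286 genes higher and 267 lower in the main comparison, the counts were 284 and 266 with a pseudocount of 0.5, 287 and 268 with 5, 288 and 266 without a filter, 223 and 254 with a minimum of 100, 240 and 334 after upper quartile scaling, 285 and 289 after median-of-ratios scaling and 282 and 377 after quantile normalization. They moved by more than 1.5 times to 79 and 52 with a constant prior on the spread, 13 and 2 in a joint fit of all 14 libraries (GTPases 5 called in place of 16, MHC class I genes 1 in place of 16, T cell and cytotoxic markers 0 in place of 8 each), and 1154 and 1154 with sample quality weights. With 1 library left out they ranged from 21 to 978 higher and from 7 to 1022 lower, and the interaction calls from 0 to 7, against 18. The tumor libraries share replicate numbers 1 to 3, and the check made did not settle whether these pair the libraries. The deviations of same-numbered libraries correlated at 0.0947, 0.0763 and 0.178, and those of differently numbered ones at −0.261 to 0.131. Only number 3 was matched best with its own number in both directions. The main comparison used no pairing. With the replicate block 439 genes were higher and 320 lower, 249 and 228 of them shared with the main calls, and 329 genes had a called interaction. Genes below about 2 normalized counts lie within 3 reads of 0 and are limited by depth.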

Other observations

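Some of the widest rises lay outside the gene lists. The genes named here were picked with their values in view. Ubd, which encodes the ubiquitin-like modifier FAT10, held 2, 1 and 6 normalized counts in the WT libraries and 48, 69 and 97 in the p110g-/- libraries (log2 fold change 4.32, adjusted p = 0.0094 with limma). Apol6, an apolipoprotein L gene, held 9, 8 and 11 in the WT libraries and 49, 88 and 84 in the p110g-/- libraries and Serpina3f, a serpin gene, 7, 10 and 21 in the WT libraries and 59, 83 and 125 in the p110g-/- libraries. Il18bp, which encodes the binding protein that neutralizes IL-18, held 41, 38 and 68 in the WT libraries and 119, 161 and 148 in the p110g-/- libraries, and Il18r1, its receptor chain, 25, 39 and 48 in the WT libraries and 90, 78 and 111 in the p110g-/- libraries. Fcgr4, an activating Fc receptor gene, held 172, 240 and 278 in the WT libraries and 595, 661 and 817 in the p110g-/- libraries and Cd72 876, 827 and 677 in the WT libraries and 1433, 2219 and 2017 in the p110g-/- libraries. Genes of T and NK cells outside the lists were also called, with Cd96 at 4, 9 and 14 in the WT libraries and 28, 31 and 40 in the p110g-/- libraries, Tox at 3, 3 and 5 in the WT libraries and 15, 12 and 26 in the p110g-/- libraries and Slamf7 at 75, 117 and 168 in the WT libraries and 236, 291 and 283 in the p110g-/- libraries. As in all 286 genes called higher, the lowest p110g-/- library of each was above the highest WT library. None of these genes kept its call without each of the 6 libraries in turn.

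Among the falls outside the lists, also picked with their values in view, Nrep held 523, 255 and 229 normalized counts in the WT libraries and 82, 70 and 78 in the p110g-/- libraries, where WT 1 was the highest. Hes1, a target of Notch signalling, held 488, 335 and 366 in the WT libraries and 200, 193 and 217 in the p110g-/- libraries. Sorcs2, a sorting receptor gene, held 417, 303 and 463 in the WT libraries and 210, 187 and 192 in the p110g-/- libraries, and Olr1, the receptor for oxidized LDL, 324, 335 and 463 in the WT libraries and 170, 181 and 219 in the p110g-/- libraries. The growth cone gene Gap43 held 83, 93 and 97 in the WT libraries and 43, 44 and 61 in the p110g-/- libraries. As in all 267 genes called lower, every p110g-/- library was below every WT library in these 5 genes. None of the 5 kept its call without each of the 6 libraries in turn.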
